A study of Mus musculus with 15 samples.

Results

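Nucleic acid sensors are the receptors with which a cell recognises RNA or DNA that is foreign or lies in the wrong place. The 9 sensor genes described here, Ddx58, Ifih1, Dhx58, Zbp1, Eif2ak2, Aim2, Tlr3, Tlr7 and Tlr9, were measured in mouse mammary tumours. They were chosen by name with earlier results of these data known, so their counts beside all genes are descriptive. Their probes were found by the transcript identifier that each array file gives for its probes. The sensors came to 9 of 19752 genes with a symbol and to 13 of 55681 probes. Ddx58, Ifih1, Zbp1 and Tlr7 had 2 probes each and the other genes 1. All 13 probes were well above background on all 15 arrays.

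The cytosolic helicases RIG-I (Ddx58) and MDA5 (Ifih1) bind viral-type RNA and signal through the mitochondrial adaptor MAVS to type I interferon, and LGP2 (Dhx58) tunes both. ZBP1 recognises nucleic acid in the left-handed Z form and can start necroptosis, PKR (Eif2ak2) stops translation when it binds paired RNA, and AIM2 assembles an inflammasome on cytosolic DNA. TLR3, TLR7 and TLR9 survey the endosome for paired RNA, unpaired RNA and unmethylated CpG DNA. Several of these genes are themselves induced by interferon, so that the sensors are at once triggers and products of the response.

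The study took mammary tumours from female MMTV-PyMT mice, in which the mammary tumour virus promoter drives the polyoma middle T oncogene, and asked how gene expression differed after antiangiogenic treatment. B20, the anti-VEGF antibody B20-4.1.1, was injected into the peritoneum at 5 mg/kg 2 times a week (4 samples), and nintedanib, an oral inhibitor of VEGF, FGF and PDGF receptor kinases, was given by gavage at 85 mg/kg a day (4 samples). Treatment began at 7 weeks of age, and vehicle samples taken at the end of treatment (3 samples) are the controls for both drugs. The T0 group (4 samples) was taken before any treatment. All 15 samples carry the PyMT oncogene, so none shows the sensors in a normal gland. The labels do not state that samples of a group came from separate mice, so the p-values reflect only how these samples differ among themselves, and that may be technical variation. One sample, T0 replicate 4, is labelled both as untreated and as vehicle. It was kept in T0 by its title, and the counts and calls of vehicle against T0 are also given without it.

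Each sample was hybridised to 1 single-colour Agilent array. Between 53.5% and 68.1% of probes were well above background on 14 arrays, and 84.2% on T0 replicate 3. The 11 end-of-treatment arrays lay on 2 slides, one with 8 arrays and one with 3 (1 of each group), while the 4 T0 arrays lay on 2 slides of their own, so that slide and group cannot be told apart for T0. Levels are log2 signals minus the 75th percentile of the same array, so a level of 0 is the signal that 75% of the array's probes stay under, and a difference of 1 is a 2-fold change. A gene with 2 probes is given by its brighter one unless the other is named. Differences were tested with limma over 28041 genes and transcripts, with p-values adjusted by Benjamini-Hochberg and a threshold of 0.05.

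The promoters of the sensors are shown because interferon acts on such genes through short DNA motifs. Windows of 250 bases before to 50 after the start, from RefSeq on GRCm38.p6, were at hand for 6 of the 9 sensors (Ddx58, Ifih1, Eif2ak2, Aim2, Tlr3 and Tlr9). Both strands were searched for GAAANNGAAA, the core of the interferon-stimulated response element, and for TTCNNNGAA, the gamma-activated site. The former was found in 3 of the 6 windows and in 1131 of all 32851 windows (3.44%), and the latter in 1 of the 6 and in 8.3% of all. All 3 genes with the first motif lie on the minus strand, and the stretches below run 5′ to 3′ along the gene, with the match in capitals. They cover chr2:62646206-62646233 for Ifih1, chr4:40239804-40239833 for Ddx58 and chr17:78882535-78882564 for Eif2ak2, and chr17:78882732-78882760 for the second motif of Eif2ak2. In Ddx58 the motif is read on the opposite strand, so its capitals are the reverse complement.
Ifih1: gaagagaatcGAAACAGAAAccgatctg
Ddx58: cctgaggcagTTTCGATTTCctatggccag
Eif2ak2: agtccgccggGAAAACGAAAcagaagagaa
Eif2ak2, gamma-activated site: ctgcagagctTTCCCAGAAtggaagccag
The response-element letters begin 3 bases after the start in Ddx58, 19 after it in Eif2ak2 and 33 after it in Ifih1, and the gamma-activated letters of Eif2ak2 begin at base -178. For interferon-stimulated effector genes, a list that holds Isg15 and Ifit genes, the same search was counted by gene and not by window. Of the 16 genes with a window, 9 had the response-element letters in at least 1. A match is a description of letters and neither a shown binding site nor a cause. The windows of Aim2, Tlr3 and Tlr9 hold neither run of letters, which says nothing of factors that bind elsewhere.

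After nintedanib, all 9 sensor genes had a higher mean than after vehicle, from 1.09-fold in Tlr9 to 2.31-fold in the helicase gene Dhx58. The median difference over the sensors was 0.62, against -0.01 over all genes tested, of which 48.8% were higher. None of the 9 passed the limma threshold after Benjamini-Hochberg adjustment, and neither did any other gene (0 of 28041, or 0%). At an unadjusted p under 0.05 there were 5 sensors (Ddx58, Ifih1, Dhx58, Zbp1 and Aim2), all higher, beside 1353 genes in all (4.83%). In 5 sensors (Ifih1, Dhx58, Zbp1, Eif2ak2 and Aim2) every nintedanib array lay above every vehicle array, as it did for 3.22% of all genes.

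After B20, 6 of the 9 sensors had a higher mean than after vehicle and the 3 Toll-like receptor genes differed from it by at most 0.03. The median difference was 0.28, against 0.04 over all genes, of which 55.1% were higher. Again no sensor and no other gene passed the adjusted limma threshold (0%), while 911 genes (3.25%) had an unadjusted p under 0.05, among them Ifih1, Dhx58 and Zbp1. In these same 3 sensors every B20 array lay above every vehicle array, as in 2.81% of all genes. Both drugs are compared with the same 3 vehicle arrays, so the 2 sets of differences are not independent of each other.

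**Figure D1:**
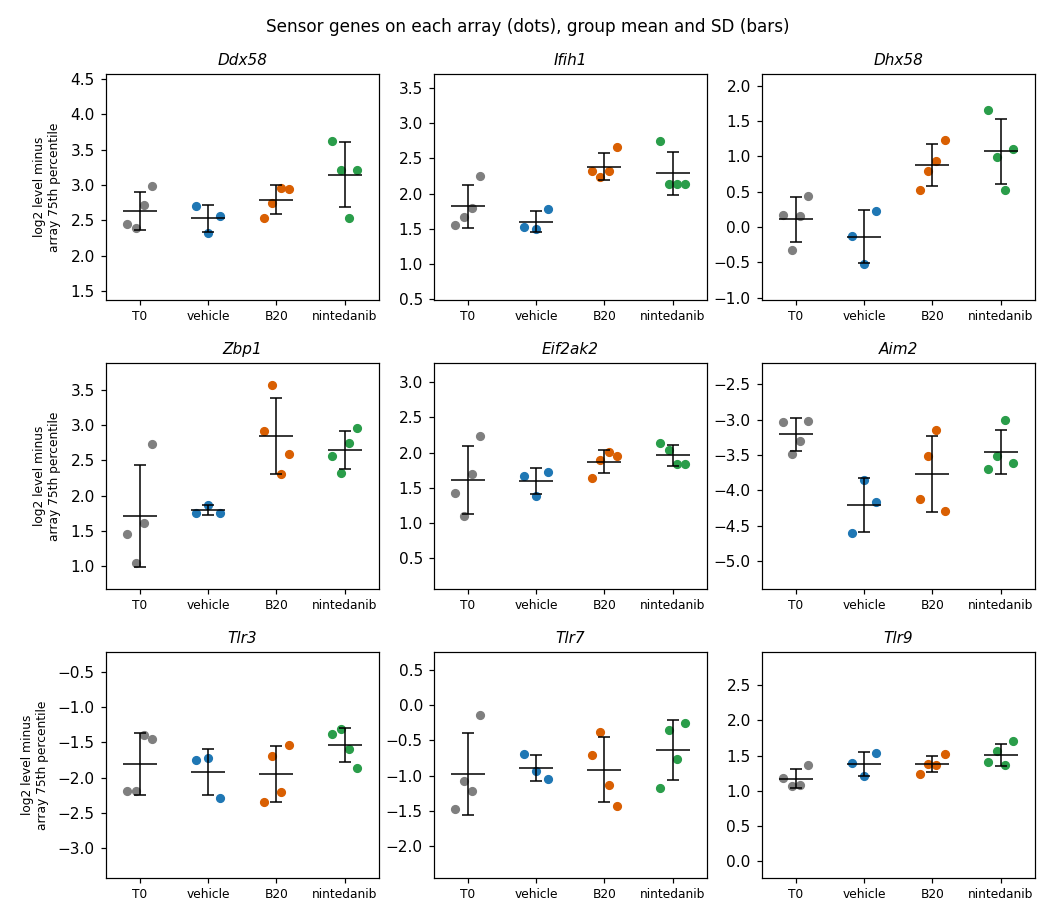
Level of each sensor gene on each array (dots, log2 minus the array's 75th percentile) in T0, vehicle, B20 and nintedanib tumours, with the group mean and SD (bars); every panel spans the same range of log2 units. In Dhx58, Ifih1 and Zbp1 all B20 and all nintedanib dots lie above all 3 vehicle dots, whereas in Tlr7 and Tlr9 the groups overlap.

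Dhx58 encodes LGP2, the helicase that lacks signalling domains of its own. It stood at -0.13, -0.52 and 0.23 on the 3 vehicle arrays. On the nintedanib arrays it stood at 1.66, 0.99, 0.53 and 1.11, and on the B20 arrays at 0.53, 0.80, 0.93 and 1.24. All 8 treated arrays were therefore above the highest vehicle array, and also above the highest T0 array. The T0 arrays, at 0.17, -0.33, 0.16 and 0.44, overlapped with vehicle. The nintedanib mean exceeded vehicle by 1.21 ± 0.28 (SE; 95% interval 0.61 to 1.81), with an unadjusted p of 0.000736 and a limma adjusted p of 0.446, rank 44 of all genes. The B20 mean exceeded vehicle by 1.01 ± 0.28 (2.02-fold; interval 0.41 to 1.61; limma adjusted p = 0.998). Within the slide of 8 arrays these differences were 1.38 and 1.08, and within the slide of 3 arrays 0.87 and 1.01.

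Ifih1 encodes MDA5, which recognises long paired RNA. Its vehicle arrays stood at 1.53, 1.5 and 1.78. The B20 arrays stood at 2.32, 2.23, 2.32 and 2.66, and the nintedanib arrays at 2.74, 2.13, 2.13 and 2.14. None of the treated arrays overlapped with vehicle, and nintedanib replicate 1 stood apart from the other 3 nintedanib arrays. The difference from vehicle was 0.78 ± 0.21 after B20 (1.72-fold; unadjusted p = 0.00222) and 0.68 ± 0.21 after nintedanib (1.61-fold; unadjusted p = 0.00556), with limma adjusted p of 0.998 and 0.791. Within the slides of 8 and 3 arrays the nintedanib difference was 0.82 and 0.36, and the B20 difference 0.78 and 0.88. On T0 arrays Ifih1 ran from 1.56 to 2.25, and its highest array there, replicate 4, reached into the range of the treated tumours.

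Ddx58, which encodes RIG-I, the sensor of RNA ends that carry a triphosphate, was the helicase with the most overlap. Its vehicle arrays stood at 2.70, 2.32 and 2.56 and its nintedanib arrays at 3.63, 3.21, 2.53 and 3.22. Thus 3 of the 4 nintedanib arrays exceeded the highest vehicle array, and replicate 3 lay within the vehicle range. The nintedanib difference was 0.62 ± 0.24 (1.54-fold; interval 0.10 to 1.14; limma adjusted p = 0.975). The B20 arrays, at 2.53, 2.75, 2.96 and 2.94, gave a difference of 0.27 ± 0.24 from vehicle (interval -0.25 to 0.79), and 3 of 4 exceeded the highest vehicle array. On the unscaled signals the B20 difference was -0.03, where the median over all genes was -0.25.

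Zbp1 is the sensor of Z-form nucleic acid. Its 3 vehicle arrays lay close together at 1.75, 1.87 and 1.75. The B20 arrays stood at 2.91, 3.57, 2.31 and 2.59, and the nintedanib arrays at 2.56, 2.32, 2.74 and 2.96. No treated array overlapped with vehicle, and B20 replicate 2 was the highest of all 15 arrays. The B20 difference was 1.05 ± 0.36 (2.08-fold; interval 0.28 to 1.83) and the nintedanib difference 0.85 ± 0.36 (1.81-fold; interval 0.08 to 1.62), with limma adjusted p of 0.998 and 0.977. Without B20 replicate 2 the B20 difference was 0.81. Within the slides of 8 and 3 arrays B20 exceeded vehicle by 1.12 and 0.83, and nintedanib by 0.73 and 1.21. The T0 arrays were the most spread, at 1.46, 1.04, 1.61 and 2.73, with replicate 4 above all vehicle arrays and the other 3 below them.

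Eif2ak2 encodes PKR, the kinase that phosphorylates the translation factor eIF2 alpha. It stood at 1.67, 1.38 and 1.73 on vehicle arrays and at 2.13, 2.03, 1.84 and 1.84 on nintedanib arrays. All 4 nintedanib arrays exceeded all vehicle arrays, though by a small margin, and the difference of 0.37 ± 0.23 had an interval that includes 0 (-0.12 to 0.86; limma adjusted p = 0.999). After B20 it stood at 1.64, 1.89, 2.01 and 1.95, with replicate 1 inside the vehicle range, and the difference was 0.28 ± 0.23. This difference was -0.01 on unscaled signals. Its T0 arrays ran from 1.10 to 2.24.

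Aim2, the DNA sensor of the inflammasome, had processed signals of only 15.5 to 56.1. It was lowest on the vehicle arrays, at -4.61, -3.85 and -4.16. Nintedanib arrays stood at -3.70, -3.52, -3.01 and -3.61, without overlap with vehicle, and T0 arrays at -3.03, -3.49, -3.30 and -3.02. The B20 arrays, at -4.13, -3.52, -3.14 and -4.30, divided evenly, with 2 of 4 above the highest vehicle array. The nintedanib difference from vehicle was 0.75 ± 0.29 (1.68-fold; interval 0.13 to 1.36; limma adjusted p = 0.971). With normexp background correction it was 0.21. The B20 difference was 0.43 ± 0.29 (interval -0.18 to 1.05), and it was -0.15 within the slide of 3 arrays.

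Tlr3, the endosomal receptor for paired RNA, averaged -1.54 ± 0.25 (SD, n = 4) after nintedanib, -1.95 ± 0.39 (n = 4) after B20, -1.92 ± 0.32 (n = 3) after vehicle and -1.81 ± 0.44 (n = 4) at T0. The nintedanib arrays ran from -1.86 to -1.31 and overlapped with the vehicle arrays, which ran from -2.29 to -1.72. The nintedanib difference from vehicle was 0.38 ± 0.27 (interval -0.21 to 0.97) and the B20 difference -0.03 ± 0.27 (interval -0.62 to 0.56).

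Tlr7, the receptor for unpaired RNA, averaged -0.64 ± 0.42 after nintedanib, -0.92 ± 0.46 after B20, -0.89 ± 0.18 after vehicle and -0.98 ± 0.58 at T0 (SD; n = 4, 4, 3 and 4). Its 4 groups overlapped throughout, and the differences from vehicle were 0.25 ± 0.33 and -0.02 ± 0.33. Tlr9, the receptor for unmethylated CpG DNA, varied least of all, with an SD of 0.18 over the 15 arrays. It averaged 1.51 ± 0.15 after nintedanib, 1.37 ± 0.12 after B20, 1.38 ± 0.17 after vehicle and 1.17 ± 0.14 at T0. Its differences from vehicle were 0.13 ± 0.15 (interval -0.19 to 0.45) and -0.01 ± 0.15 (interval -0.33 to 0.31). In both genes the limma intervals include 0 for both drugs.

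**Figure D2:**
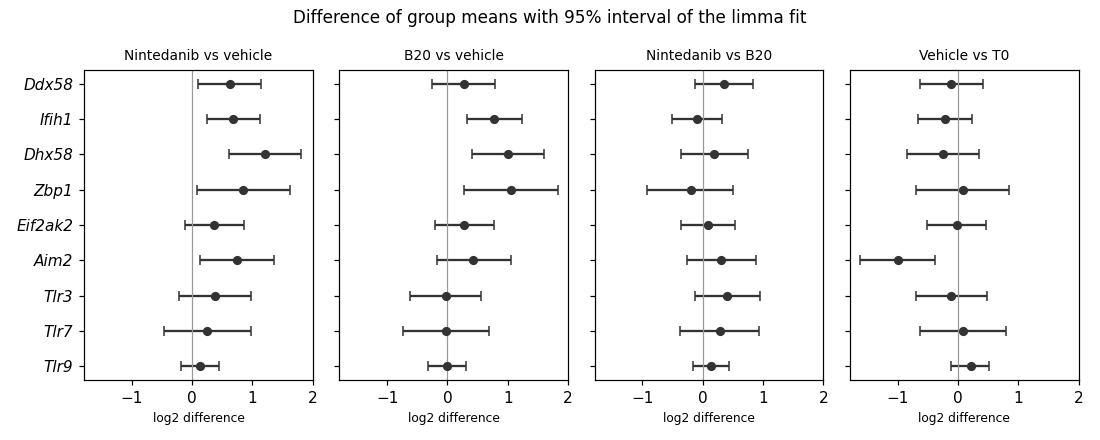
Difference of group means for each sensor gene (dots, log2) with the 95% interval of the limma fit (bars), in 4 comparisons. Against vehicle the intervals of Ifih1, Dhx58 and Zbp1 lie above 0 for both drugs, those of Ddx58 and Aim2 for nintedanib alone, and no sensor has an interval clear of 0 between nintedanib and B20.

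Set directly against B20, nintedanib gave a higher mean in 7 of 9 sensors, with a median difference of 0.19 against -0.04 over all genes, of which 44.7% were higher. No sensor passed the adjusted limma threshold, nor did any other gene (0%; 9.38% at an unadjusted p under 0.05), and no sensor separated the 2 groups without overlap, as 5.73% of all genes did. The largest difference was that of Tlr3 at 0.41 ± 0.25 (interval -0.13 to 0.95), followed by Ddx58 at 0.35 ± 0.22 (interval -0.13 to 0.83). Ifih1 and Zbp1 were lower after nintedanib by the mean, at -0.10 ± 0.19 and -0.20 ± 0.33. Dhx58 differed by 0.19 ± 0.26 (interval -0.36 to 0.75). The intervals do not show that the antibody and the kinase inhibitor act alike on these genes, since most of them extend past 0.5 in one direction. The sensors past the unadjusted threshold for nintedanib and not for B20, Ddx58 and Aim2, had direct differences of 0.35 ± 0.22 and 0.31 ± 0.27, whose intervals include 0.

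From T0 to vehicle, which spans tumour growth without drug, 3 sensors had a higher mean and 6 a lower one, with a median of -0.11 against 0.04 over all genes, of which 54% were higher. In this comparison 1380 genes (4.92%) passed the adjusted limma threshold, and none of the 9 sensors was among them. At an unadjusted p under 0.05 there was 1 sensor, Aim2, beside 21.3% of all genes. For Aim2 all 3 vehicle arrays lay below all 4 T0 arrays, as in 6.96% of all genes, and the difference was -1.0 ± 0.29 (2-fold; unadjusted p = 0.00392; limma adjusted p = 0.0625). The adjusted p was 0.0462 when only genes well above background on all arrays were tested, and 0.0492 without B20 replicate 3, and over all alternatives it ran from 0.0462 to 0.282. Without T0 replicate 4 the Aim2 difference was -0.94 ± 0.31 (limma adjusted p = 0.0902). The other 8 differences ran from -0.25 in Dhx58 to 0.21 in Tlr9, each with an interval that includes 0. T0 replicate 4, the sample with both labels, was the highest T0 array for 8 of the 9 sensors. T0 replicate 3, on the same slide, was the highest for Tlr3. Replicates 1 and 2, on the other T0 slide, were the lowest for 3 and 6 sensors. The part of the slide in this was not tested. Without T0 replicate 4, 6 of the 9 sensors had a higher mean in vehicle. That count was 5 without T0 replicate 3 and 1 without T0 replicate 1.

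The order of the 4 groups differed from gene to gene. By the mean, vehicle was lowest in Ddx58, Ifih1, Dhx58, Eif2ak2 and Aim2, T0 in Zbp1, Tlr7 and Tlr9, and B20 in Tlr3. Nintedanib was highest in Ddx58, Dhx58, Eif2ak2, Tlr3, Tlr7 and Tlr9, B20 in Ifih1 and Zbp1, and T0 in Aim2. Among groups next to each other in these orders, only T0 and B20 in Dhx58, and vehicle and nintedanib in Zbp1, did not overlap. Single arrays led several genes at once. Nintedanib replicate 1 was the highest of its group for Ddx58, Ifih1, Dhx58 and Eif2ak2, and nintedanib replicate 3 was the lowest for Ddx58, Dhx58, Eif2ak2 and Tlr9. Leaving out nintedanib replicate 1, or any other nintedanib or vehicle array, left all 9 nintedanib differences from vehicle above 0.

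The 4 genes with a second, dimmer probe showed where the measurement depends on the probe. For Ddx58 the dimmer probe separated both drugs from vehicle without overlap, with vehicle at -2.09, -2.16 and -2.31, and differences of 0.73 ± 0.29 for nintedanib and 0.60 ± 0.29 for B20. For Ifih1 the nintedanib differences of both probes were near, at 0.68 and 0.72, while the B20 difference was 0.78 on the brighter and 0.40 ± 0.24 on the dimmer probe, where B20 and vehicle overlapped.

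Zbp1 differed by more on its dimmer probe, by 1.30 ± 0.47 after nintedanib and 1.13 ± 0.47 after B20, again without overlap with vehicle. That probe carries another transcript identifier than the brighter one. On it the T0 arrays split by slide, at -1.74 and -2.49 on one slide and -0.44 and 0.09 on the other, and vehicle exceeded T0 by 0.97 ± 0.47, against 0.08 ± 0.36 on the brighter probe. For Tlr7 both probes were annotated to one transcript, yet vehicle against T0 gave 0.09 ± 0.33 on the brighter and -0.81 ± 0.30 on the dimmer probe, so the direction of that comparison is not settled. None of the dimmer probes passed the limma threshold after adjustment over 38969 probes.

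**Figure D3:**
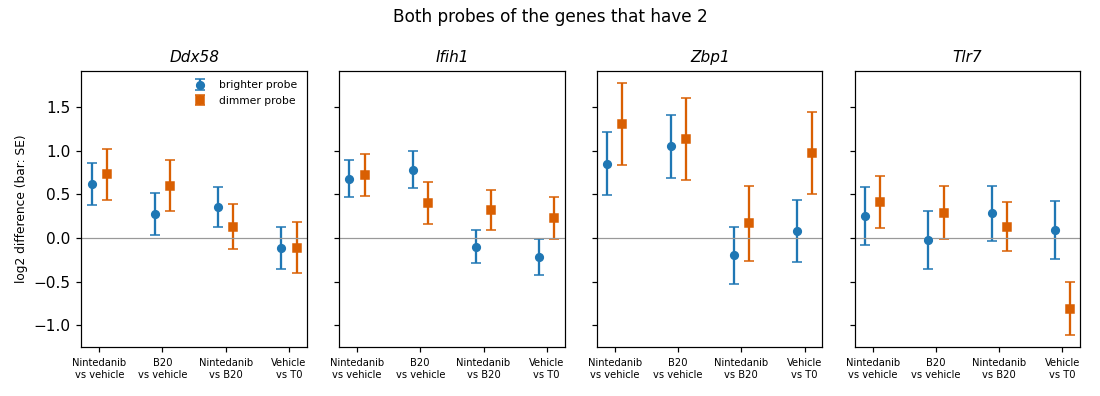
Difference of group means (log2, bars are SE) for the brighter probe (circles) and the dimmer probe (squares) of the 4 sensors with 2 probes, in each comparison. The probes of Tlr7 point in opposite directions for vehicle against T0 (0.09 and -0.81), and the Zbp1 probes differ there (0.08 and 0.97).

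The genes around the sensors were taken by list, and the lists too were chosen with earlier results of these data known. Of 18 other nucleic acid sensors tested, 7 were higher and 11 lower after nintedanib than after vehicle (median -0.14), and 11 higher and 7 lower after B20 (median 0.06). None passed the limma threshold for either drug. The higher ones were led by the oligoadenylate synthetases, which turn paired RNA into a second messenger for RNase L. Oas2 differed by 2.88 ± 0.54 after nintedanib and 2.14 ± 0.54 after B20, Oas1a by 2.02 ± 0.43 and 1.83 ± 0.43, and their relative Oasl1 by 1.75 ± 0.42 and 0.84 ± 0.42. Limma adjusted p for the 3 after nintedanib were 0.276, 0.377 and 0.491. Cgas, the cytosolic DNA sensor upstream of STING, differed by -0.22 ± 0.19 and -0.03 ± 0.19.

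Downstream of the sensors, most adaptors, kinases and transcription factors differed little between treated and vehicle tumours. Of 24 tested, 15 were higher after nintedanib and 10 after B20, with medians of 0.06 and -0.01, and none passed the limma threshold. Mavs, the adaptor of RIG-I and MDA5, differed by 0.24 ± 0.21 after nintedanib and -0.03 ± 0.21 after B20. Sting1, the adaptor of cGAS, differed by -0.11 ± 0.19 and -0.19 ± 0.19, and Myd88, the adaptor of TLR7 and TLR9, by 0.08 ± 0.22 and 0.00 ± 0.22. Unc93b1, which carries the endosomal receptors to their compartment, differed by 0.20 ± 0.17 and -0.10 ± 0.17, and Rnf135, a ubiquitin ligase for RIG-I, by 0.22 ± 0.19 and 0.10 ± 0.19. Irf7, the interferon-induced transcription factor that amplifies type I interferon, stood out from this list. It averaged 0.45 ± 0.85 (SD, n = 3) after vehicle, 2.75 ± 0.43 (n = 4) after nintedanib and 2.18 ± 0.34 (n = 4) after B20, and differed by 2.30 ± 0.44 (limma adjusted p = 0.276) and 1.73 ± 0.44 (limma adjusted p = 0.998).

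Of the regulators and nucleases that limit sensing, 9 of 18 were higher after each drug. Adar, the enzyme that edits paired RNA so that MDA5 ignores it, differed by 0.75 ± 0.21 after nintedanib and 0.56 ± 0.21 after B20. Trex1, which degrades cytosolic DNA, differed by 0.42 ± 0.20 and 0.19 ± 0.20, and Nlrc5, a regulator of MHC class I genes, by 0.88 ± 0.44 and 0.43 ± 0.44. In the translation arm of PKR, which holds eIF2 and its exchange factor, the other eIF2 kinases and the stress genes they induce, 4 of 16 genes were higher after nintedanib (median -0.15) and 8 of 16 after B20 (median 0.00). Ddit3, the stress transcription factor CHOP, differed by 0.33 ± 0.19 and 0.40 ± 0.19, Eif2b4 by -0.28 ± 0.14 and -0.03 ± 0.14, and Eif2ak3 by -0.28 ± 0.18 and 0.02 ± 0.18.

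Interferons and their receptors gave 11 of 17 higher after nintedanib (median 0.15) and 9 of 17 after B20 (median 0.01). The probe of Ifnb1, the main type I interferon made after RNA sensing, was well above background on only 2 arrays and was not tested. Ifng was dim and differed by 1.06 ± 0.50 after nintedanib and 0.55 ± 0.50 after B20. Irf9, the DNA-binding part of the complex that acts on the interferon-stimulated response element, differed by 0.60 ± 0.17 and 0.61 ± 0.17, and Ifnlr1 by 0.31 ± 0.15 and 0.13 ± 0.15.

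The interferon-stimulated effectors, genes such as Isg15 and Ifit3 that carry out the antiviral response, were higher in 19 of 19 tested genes after each drug. Their median difference was 1.51 after nintedanib and 1.24 after B20, and 17 and 16 of them did not overlap with vehicle, where 3.22% and 2.81% of all genes did so. None passed the adjusted limma threshold. Trim30a differed by 1.82 ± 0.30 and 1.20 ± 0.30, Xaf1 by 1.69 ± 0.30 and 1.55 ± 0.30, and Ifit3 by 2.30 ± 0.45 and 1.93 ± 0.45, each with a limma adjusted p of 0.276 after nintedanib. The differences of Ifih1, Dhx58 and Zbp1 (0.68 to 1.21 after nintedanib) thus lay below the median of this list.

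**Figure D4:**
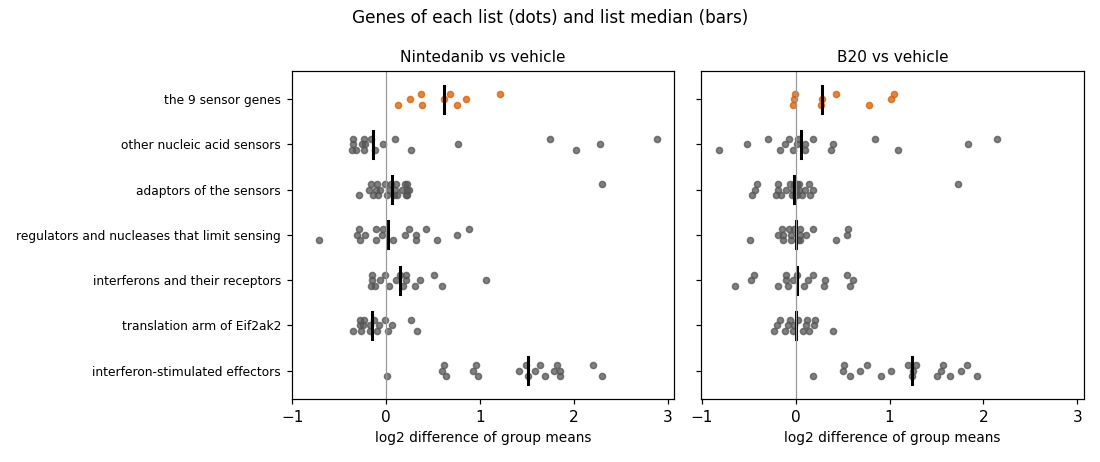
Difference from vehicle (log2) of every tested gene of 7 lists (dots) with the list's median (bars), for nintedanib and for B20. All 19 interferon-stimulated effectors lie above 0 in both panels, with medians of 1.51 and 1.24, the 9 sensors have medians of 0.62 and 0.28, and the 5 other lists have medians between -0.15 and 0.15.

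Between T0 and vehicle, 7 of the 112 tested genes of these 6 lists passed the limma threshold (6.25%), a share near the 4.92% of all genes. Casp1, the protease that AIM2 activates, rose by 1.07 ± 0.25 (adjusted p = 0.0273 by limma). Ikbke, a kinase below MAVS, rose by 1.06 ± 0.22 (adjusted p = 0.02 by limma), and Nfkb1 rose by 0.77 ± 0.18 (adjusted p = 0.0272 by limma). The DNA sensor Ifi204, of the same gene family as Aim2, differed by -1.07 ± 0.20 (adjusted p = 0.0107 by limma) and so fell. Rnf125, a ubiquitin ligase that marks RIG-I for degradation, Ifngr1, a chain of the interferon gamma receptor, and the effector Cmpk2 also fell, with differences of -0.83, -0.73 and -0.95. Without T0 replicate 4, 8 genes of the lists passed, 6 of these 7 among them, and Ifngr1 had a limma adjusted p of 0.0523. The count was 2 without T0 replicate 1, 4 without T0 replicate 2, 1 without vehicle replicate 1, 1 without vehicle replicate 2 and 4 without vehicle replicate 3. Ifi204 passed in each of the fits that left out 1 array. Calls of these genes under other ways of processing are not given here. There the count over all genes called ran from 17 to 5274. Since T0 lies on slides of its own, slide and group cannot be told apart for these genes.

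Dhx58, Zbp1 and Aim2 had an SD over the 15 arrays above 0.5, and for these the genes with the nearest pattern were sought among 13403 named genes, by the root mean square difference of levels centred on each gene's mean. For Dhx58 they were the interferon-induced GTPase genes Gbp3 and Irgm2 and the gene Gm12250, each at 0.27. For Zbp1 they were Slfn2 (0.26), Ifi35 (0.30) and 1500011B03Rik (0.31). For Aim2 they were Txnip (0.32), Coro2a (0.32) and Mtrr (0.33). Among the sensors the nearest pair was Ddx58 and Eif2ak2, at 0.22. These distances describe the 15 arrays and carry no test. A distance is also small where both genes vary little, as Ddx58 and Eif2ak2 did (SD 0.36 and 0.30). Mtrr, with an SD of 0.28, varied less than Aim2.

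Because the tumours were measured whole, fewer cells of a type and less RNA per cell cannot be told apart in any of these levels. The summed log2 level of the 9 luminal markers lay between 9.17 and 9.74 in all groups. Krt18 had the highest mean of them in each group and so weighs most in this sum, while Muc1 was dim throughout. After each drug 5 of 9 luminal markers were higher, with medians of 0.02 for nintedanib and 0.01 for B20. From T0 to vehicle 7 of 9 were lower, and none passed the adjusted limma threshold. Among these 7, Epcam (-0.71), Elf5 (-0.45) and Muc1 (-0.82) had an unadjusted limma p under 0.05. Of the markers of cells in which TLR7, TLR9, ZBP1 and AIM2 are at home, macrophage markers were higher after nintedanib in 10 of 10 tested genes, with a median difference of 0.24, and in 5 of 10 after B20, with a median of 0.06. Their summed level ran from 6.96 to 7.25 after nintedanib, from 6.90 to 7.12 after B20, from 6.84 to 6.95 after vehicle and from 6.64 to 6.95 at T0. Conventional dendritic cell markers were higher in 7 of 7 tested genes after nintedanib (median 0.37) and 6 of 7 after B20 (median 0.21), and Xcr1, which defines one class of these cells, did not reach the well-above-background flag on any of the 15 arrays.

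Plasmacytoid dendritic cell markers were higher in 7 of 10 genes after nintedanib and 8 of 10 after B20, among them Bst2, which is also on the effector list. Their medians were 0.58 and 0.21. Siglech, the brightest of these markers, differed by -0.15 ± 0.21 and 0.07 ± 0.21. Pacsin1 and Tcf4 were also lower after nintedanib, at -0.09 ± 0.16 and -0.15 ± 0.30. Among the higher ones, Klk1 (1.46 ± 0.96) and Cox6a2 (1.14 ± 1.66) spread widely over the nintedanib arrays (SD 2.42 and 1.92). Cox6a2 averaged 3.95 at T0, 1.77 after B20, 0.73 after nintedanib and -0.40 after vehicle, the group order of the summed skeletal muscle medians. B cell markers were higher in 5 of 6 and 4 of 6 genes, and Ms4a1, which encodes CD20, was well above background on only 2 arrays. T and NK cell markers were higher in 8 of 11 genes after each drug, with summed levels that overlapped across the groups. The summed level of adipocyte markers was 3.46 to 5.96 after vehicle, 5.39 to 7.63 after B20, 5.27 to 8.12 after nintedanib and 8.63 to 10.51 at T0, with 8 of 8 genes higher after each drug (medians 2.29 for nintedanib and 2.37 for B20) and 8 of 8 lower in vehicle than at T0, all past the limma threshold, also without T0 replicate 4. Aim2 was likewise lowest in vehicle and highest at T0, and so were the medians of the summed skeletal muscle markers (3.41 and 8.42). From T0 to vehicle, 8 of 8 muscle and 8 of 8 endothelial markers were also lower (medians -3.82 and -0.69). So were 6 of 7 conventional dendritic cell and 9 of 11 T and NK cell markers (medians -0.64 and -0.32). Of macrophage, B cell and neutrophil markers, 5 of 10, 2 of 6 and 2 of 7 were lower. Tek, Cldn5 and Cd3g passed the limma threshold there. Skeletal muscle markers were higher in 8 of 8 genes after each drug, with medians of 1.44 for nintedanib and 2.25 for B20. Their summed level ran from 3.16 to 6.27 after vehicle, 3.86 to 10.49 after B20, 3.68 to 7.59 after nintedanib and 5.57 to 10.98 at T0. Erythroid markers were higher in 4 of 4 tested genes after each drug (medians 1.04 and 1.12). Their summed levels were 5.15 to 5.49 after vehicle, 3.97 to 8.36 after B20, 5.67 to 7.31 after nintedanib and 6.16 to 8.17 at T0. Neutrophil markers were higher in 4 of 7 genes after nintedanib and 6 of 7 after B20 (medians 0.17 and 0.88). Their summed levels overlapped across vehicle, B20 and nintedanib. Endothelial markers were higher in 4 of 8 genes after nintedanib and 1 of 8 after B20 (medians -0.01 and -0.42), again with overlapping sums. Kdr had the highest mean of them in each group and so weighs most in this sum. It was also the 1 gene higher after B20, by 0.35 ± 0.27. Tie1 (-1.10 ± 0.37), Emcn (-0.74 ± 0.33) and Eng (-0.80 ± 0.31) were lower after B20 at an unadjusted limma p under 0.05, as were or rose 3.25% of all genes. None of the marker genes passed the limma threshold against vehicle for either drug. The part of any of these cell types in the sensors' differences was not tested.

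**Figure D5:**
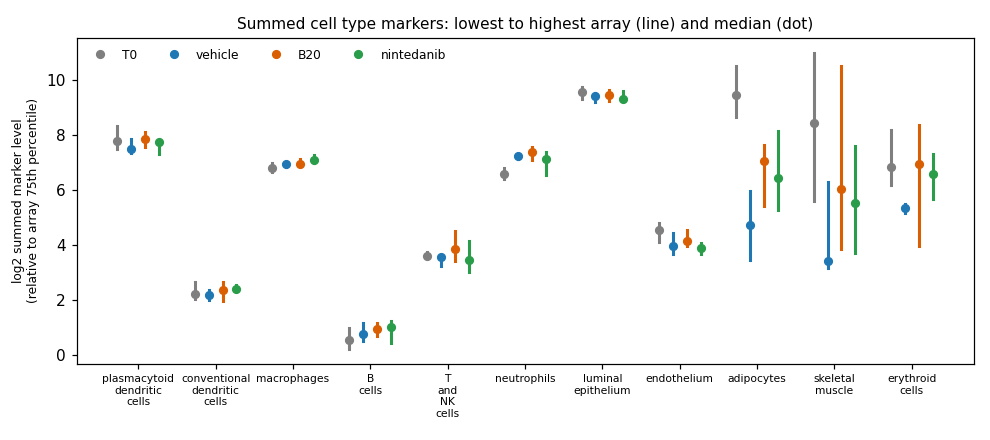
Summed level of the markers of each cell type (log2, relative to the array's 75th percentile) in each group, as the lowest to the highest array (line) and the median (dot). Luminal markers stay between 9.17 and 9.74 in all groups, while adipocyte markers run from 3.46 to 5.96 after vehicle and from 8.63 to 10.51 at T0.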

How the data were processed

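Total RNA of 15 mammary tumour samples was labelled with Cy3 and hybridised to single-colour arrays of 55681 probes, per the labels' protocols. The authors deposited 1 scanner file per array. Its processed signal is an intensity that is already background-corrected, per the file headers, and its flags for spots well above background or not uniform are used here as deposited. The authors also deposited a table of log2 values, which differed from normexp and quantile-normalised log2 signals by a median of at most 0.0116 on any array (median r 0.999918).

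Outlier spots were left out, spots of a probe averaged, log2 taken and each array's 75th percentile subtracted. A gene was represented by its brightest probe and tested if well above background on at least 3 arrays (28041 genes and transcripts, 16111 with a symbol). A mean per group was fitted over all 15 arrays with limma 3.58.1 in R 4.3.3, two-sided, with Benjamini-Hochberg adjustment and a threshold of 0.05. The fit was tested on simulated data. Precision is limited by having 3 or 4 arrays a group.

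The sensors and gene lists were chosen with earlier results of these data known. All sensors are named. Of each list, Cgas, Sting1, Mavs, Myd88, Ifnb1, Ifng and Irf7 are named, and those past the threshold or else the 3 with the lowest p for nintedanib against vehicle; 1 further gene that the rule names is not reported here. Old symbols (Mb21d1, Mnda, Tmem173) were resolved through RefSeq synonyms. The alternatives were other scalings, background correction, the authors' values, other filters, probe rules, slide and replicate blocks, array weights and leaving out each array. Background correction was normexp with offset 50. It was planned for the mean signal, which the scanner output does not hold, and was run on the median signal. The dimmer probe of a gene was added as an alternative after seeing the data. Probe positions in the genome were not used here, and the promoters of Dhx58, Zbp1 and Tlr7 were not analysed here.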

Additional observations from a re-analysis of the deposited data

Results flagged for a closer look

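In 39 groups of 4 arrays, the highest or lowest array was compared with the others by Dixon's test, which chance alone passes in about 1 of 20 groups. It singled out 2 values, both on nintedanib replicate 1. Ifih1 stood there at 2.74, where the other 3 nintedanib arrays lay between 2.13 and 2.14. The dimmer probe of Zbp1 stood there at 1.64, where the other 3 lay between 0.91 and 1.01.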

How the results depend on the processing

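For nintedanib against vehicle, all 265 recomputed sensor differences stayed above 0 and none passed the adjusted limma threshold. Part of these could not change direction. Leaving out an array of a group outside the comparison alters the p-value and not the difference. That also holds for the other comparisons. For B20 against vehicle 244 of 265 kept their direction, for nintedanib against B20 252 of 265 and for vehicle against T0 219 of 247, where 2 further values, both of Aim2, newly passed the threshold. The causes of these changes were not tested. Dim signals limit Aim2, whose nintedanib difference was 0.21 with normexp and 0.22 with the authors' values.

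On unscaled signals, where the median over all genes was -0.25 for B20 against vehicle, 0.40 for nintedanib against B20 and 0.23 for vehicle against T0, B20 against vehicle gave -0.03 for Ddx58 and -0.01 for Eif2ak2, nintedanib against B20 gave 0.34 for Ifih1 and 0.24 for Zbp1, and vehicle against T0 gave 0.08 for Ddx58, 0.17 for Eif2ak2 and 0.08 for Tlr3, with 6 sensors higher in place of 3. For B20 against vehicle, Tlr9 gave 0.00 with normexp and with the authors' values, 0.01 with slide as a block and 0.04 with array weights. For vehicle against T0, Eif2ak2 gave 0.01 with median scaling, 0.00 with quantile normalisation and 0.09 with normexp and with the authors' values. Array weights gave 6 sensors higher there, with 0.00 for Ddx58, 0.24 for Eif2ak2 and 0.25 for Tlr3. Testing only genes well above background on all arrays called 1 sensor (Aim2).

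With the mean of a gene's probes, Tlr7 gave 0.13 for B20 against vehicle and -0.36 for vehicle against T0, and Ifih1 gave 0.11 for nintedanib against B20 and 0.00 for vehicle against T0. With the dimmer probe, an alternative chosen after seeing the data, Tlr7 gave 0.29 and -0.81, Ifih1 gave 0.32 and 0.23, and Zbp1 gave 0.17 for nintedanib against B20. Within the slide of 8 arrays B20 against vehicle gave 0.07 for Tlr7 and 0.03 for Tlr9, and nintedanib against B20 gave 0.05 for Ifih1 and -0.02 for Tlr7. Within the slide of 3 arrays, which has 1 array a group and so no test, B20 against vehicle gave -0.15 for Aim2 and 0.74 for Tlr3, and nintedanib against B20 gave -0.13 for Dhx58, 0.38 for Zbp1, -0.11 for Eif2ak2 and -0.32 for Tlr3.

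Leaving out 1 array in turn, the count of sensors higher in vehicle than at T0 ran from 1 to 6 and the count called from 0 to 1 (Aim2, without B20 replicate 3). For B20 against vehicle Tlr3 ran from -0.21 to 0.10, Tlr7 from -0.20 to 0.15 and Tlr9 from -0.09 to 0.08. For nintedanib against B20 Dhx58 ran from 0.00 to 0.38 and Zbp1 from -0.38 to 0.04. For vehicle against T0 Ddx58 ran from -0.20 to 0.01, Zbp1 from -0.14 to 0.42, Eif2ak2 from -0.20 to 0.18, Tlr3 from -0.24 to 0.07 and Tlr7 from -0.08 to 0.36.

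Over all genes, vehicle against T0 called 1380 genes, but 680 with median scaling, 894 without a filter, 875 with slide as a random block, 17 when only the 2 groups were fitted and 5274 with array weights. That count was 2096 without T0 replicate 4, 522 without T0 replicate 1, 656 without T0 replicate 2, and 522, 512 and 480 without vehicle replicates 1, 2 and 3. For nintedanib against vehicle it was 12 with array weights, 2 without T0 replicate 4 and 1 without vehicle replicate 2, and for nintedanib against B20 it was 1 with only the 2 groups and 1 without vehicle replicate 1. Same-numbered arrays showed no common deviation over all genes (r of deviations from -0.24 to 0.25). With 3 or 4 arrays a group this cannot decide whether the numbers pair the samples. The main fit took them as unpaired. With the replicate number as a block no sensor was called, Eif2ak2 gave 0.04 for vehicle against T0, and 1224 genes were called there.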
